A study of Rattus norvegicus with 8 samples.

Results

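The genes described here are 10 rat receptors for extracellular purines and pyrimidines: the ATP-gated channels P2rx1, P2rx4 and P2rx7, the nucleotide receptors P2ry1, P2ry2, P2ry6 and P2ry14, and the adenosine receptors Adora1, Adora2a and Adora2b. They were chosen by name, with earlier results of these data known. Their probes were those whose RefSeq transcript belongs to one of these genes. The receptors were 10 of 16678 named genes on the array and had 12 of its 45598 probes. RNA came from vessels of 4 male hypertensive rats and 4 male control rats, with 1 array per rat. The controls were Wistar-Kyoto rats. The strain entry of the hypertensive rats is also Wistar-Kyoto, whereas the series title presents them as a hypertensive disease model, so their strain is not settled here. The cause of the hypertension, the age of the rats, any treatment and the kind of vessel are not given in the sources used here.

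Cells of the vessel wall, nerves and platelets release ATP, ADP and uridine nucleotides, which act on P2 receptors of neighbouring cells before surface enzymes break them down to adenosine. P2X receptors are cation channels opened by ATP. P2Y and adenosine receptors couple to G proteins, which raise calcium or alter cyclic AMP. In arteries, ATP from sympathetic nerves contracts smooth muscle mainly through P2rx1, endothelial P2Y receptors promote relaxation, and Adora2a and Adora2b dilate vessels.

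Neighbouring receptor genes give a context for the comparison. In the GRCr8 gene table, P2ry2 and P2ry6 lie side by side on chromosome 1 with 0 coding genes between them, and so do P2rx4 and P2rx7 on chromosome 12. P2ry14, P2ry13 and P2ry12 lie close together on chromosome 2. The promoters of P2ry14, the receptor whose signal fell, and of P2ry2, a neighbour of P2ry6, are shown because neither receptor's groups overlapped, although P2ry2 did not pass the test. Each is the 250 bases before 1 annotated transcript start in RefSeq (GRCr8), read 5′ to 3′ on the gene's strand, and both genes lie on the minus strand. The P2ry14 window is chr2:145538511-145538760 and the P2ry2 window is chr1:164779489-164779738. Capitals mark every match to the motifs searched on both strands, which were the core promoter box TATAAA, the Sp-family box GGGCGG, the AP-1 motif TGANTCA and the CRE half-site motif TGACG.
P2ry14: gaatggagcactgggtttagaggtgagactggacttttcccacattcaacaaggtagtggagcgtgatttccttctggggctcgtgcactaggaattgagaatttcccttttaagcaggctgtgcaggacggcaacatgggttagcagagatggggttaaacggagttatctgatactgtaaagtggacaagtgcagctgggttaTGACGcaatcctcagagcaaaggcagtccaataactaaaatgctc
P2ry2: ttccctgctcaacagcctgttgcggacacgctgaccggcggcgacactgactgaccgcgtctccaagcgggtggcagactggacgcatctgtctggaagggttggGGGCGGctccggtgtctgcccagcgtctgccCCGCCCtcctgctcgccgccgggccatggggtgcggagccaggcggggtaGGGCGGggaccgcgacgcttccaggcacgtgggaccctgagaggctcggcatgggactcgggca
The P2ry14 window had 1 match to TGACG, on the gene's strand and starting 45 bases before the transcript start, and its GC content was 47.6%. The P2ry2 window had 3 GGGCGG matches, at 145 and 64 bases on the gene's strand and at 114 bases on the opposite strand, and its GC content was 71.2%. Over 33469 rat promoters of the same length, TGACG occurred in 18.2% and GGGCGG in 30.5%, and the median GC content was 51.2%. TATAAA occurred in 12.9% and TGANTCA in 6.34%. Among the other receptors described here, GGGCGG also occurred in the windows of Adora2b (GC content 71.2%), P2ry1 and P2rx7, and TGACG in that of P2rx4. Adora2b, P2ry1 and P2rx4 did not pass the test, and P2rx7 was not tested. A match is a description of letters and not of a binding site. Of the 10 receptors, 8 had a promoter in the table, and P2ry6 and Adora2a had none.

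Values are given as log2 of the processed signal relative to the 75th percentile of its array, so 0 is the level of a probe at that percentile. Between 58.7% and 64.1% of probes were well above background on each array, and the 75th percentile of signal was 357 to 478 units on hypertensive arrays and 405 to 503 units on control arrays. All 8 arrays were on 1 slide, with hypertensive arrays in row 2 and control arrays in row 1, so row and group cannot be told apart. On the second principal component, which held 17.0% of the variance, hypertensive replicate 4 stood apart from the other arrays. That array also had a summed adipocyte marker level of 27.0, against 4.90 to 6.18 on the other hypertensive arrays and 4.07 to 8.48 on control arrays. All 10 smooth muscle and all 10 endothelial markers were measurable. Of 24552 tests over the array, 641 genes or unnamed probes rose and 470 fell in hypertensive vessels, which is 4.53% (limma, Benjamini-Hochberg adjusted p below 0.05). The split was 529 higher and 586 lower with quantile normalization, and 422 higher and 652 lower with median centring.

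Of the 10 receptors, 7 could be tested, 0 rose and 1 fell, P2ry14, against 4.53% of all tests called in either direction. Groups did not overlap for 3 of the 7, P2ry14, P2ry6 and P2ry2, which is 42.9% of them, against 13.6% of all tests. Because the receptors were chosen with earlier results of these data known, such shares describe these 7 genes and are not a test. The median change of the 7 was -0.21, and the median over all tests was 0.04. Estimates were below 0 for 5 and above 0 for 2. An unadjusted p under 0.05 was found for 3 of the 7, where the whole array had 20.3% of its tests there, and counts at that threshold given for other lists are to be read against this share. The tenth and ninetieth percentiles of change over all tests were -0.27 and 0.38, and 42.3% of all tests had a negative estimate.

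**Figure D1:**
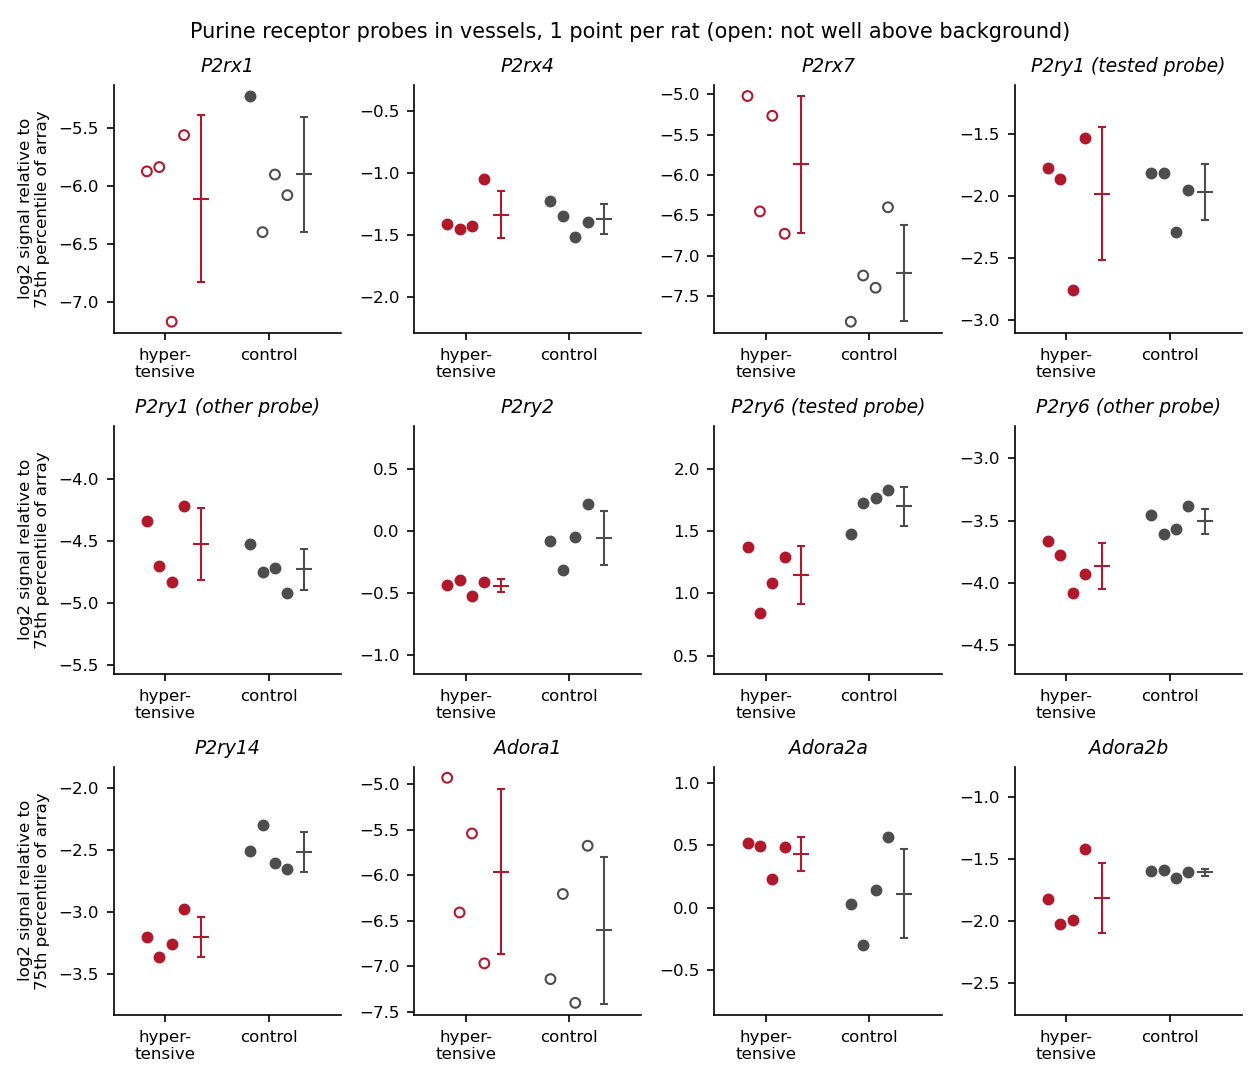
Log2 signal relative to the array's 75th percentile for the 12 receptor probes, with 1 point per rat, hypertensive on the left and control on the right, and mean and SD as a bar. Open points were not well above background. All 4 hypertensive values lie under all 4 control values for P2ry14, both P2ry6 probes and P2ry2.

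P2ry14 encodes the receptor for UDP-glucose and other UDP-sugars, which couples to Gi and is found on immune and stromal cells. Its single probe gave processed signals of 38.8, 38.0, 41.0 and 60.5 units in the 4 hypertensive vessels, against 82.8, 82.4, 82.5 and 71.4 units in control vessels. Relative to the array's 75th percentile these were -3.20, -3.36, -3.26 and -2.98 in hypertensive vessels, against -2.51, -2.30, -2.61 and -2.66 in control vessels. Every hypertensive array was lower than every control array. P2ry14 fell by 0.68 on the log2 scale in hypertensive vessels (SE 0.11), which is 1.60-fold lower, with adjusted p = 0.0123 in limma. The 95% interval of the change was -0.94 to -0.42, and P2ry14 ranked 469 of 24552 tests by p. The probe was well above background on all 8 arrays. The call was lost with slide position, which is the same as replicate number here, as a block (adjusted p = 0.0723). Leaving out any 1 array kept the call, and without hypertensive replicate 4 the change was -0.75 (adjusted p = 0.00890). With normexp background correction, in which an offset of 50 units was added to every signal, the change was -0.26 and the call was lost (adjusted p = 0.0826). In whole vessels, fewer cells that express a gene and less of its RNA per cell cannot be told apart. The macrophage marker Mrc1, a mannose receptor, also fell, by 0.51 (SE 0.12, adjusted p = 0.0496), and 9 of 11 macrophage markers had negative estimates (median -0.24). Their summed level was 156 to 220 in hypertensive vessels, against 137 to 173 in control vessels, so the sum and the median differ in sign. The gene Lyz2, which adds much of that sum, had 0.53 (adjusted p = 0.0799). The summed level of 7 lymphocyte markers, of which 0 passed in limma and 3 had an unadjusted p under 0.05 (20.3% of all tests), was 3.27 to 5.52 in hypertensive vessels and 5.14 to 7.76 in control vessels. Their part in the P2ry14 difference was not tested.

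The other receptors of the same chromosomal group did not pass the test. P2ry12, the ADP receptor of platelets and microglia, had a change of 0.14 (SE 0.10, adjusted p = 0.472). P2ry13, another ADP receptor, had a change of 0.11 (SE 0.12, adjusted p = 0.658), and its other probe gave -0.07. Within arrays, the change of P2ry14 differed from that of P2ry12 by -0.82 and from that of P2ry13 by -0.79. These pairs were chosen after the values were seen, and no test is given for them.

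P2ry6, the UDP receptor, couples to Gq and contracts vascular smooth muscle. Processed signals were 924, 702, 829 and 1172 units in hypertensive vessels, against 1315, 1341, 1711 and 1606 units in control vessels. On the relative log2 scale the values were 1.37, 0.84, 1.08 and 1.29 in hypertensive vessels, against 1.48, 1.73, 1.77 and 1.83 in control vessels. The groups did not overlap, although hypertensive replicate 1 and control replicate 1 were close. The estimate was -0.55 (SE 0.13, 95% interval -0.86 to -0.25), and the adjusted p of 0.0557 missed the threshold. The P2ry6 call depended on processing, since it passed with normexp (-0.55, adjusted p = 0.0152), with median centring (-0.64, adjusted p = 0.0344), when all 8 arrays had to be above background (adjusted p = 0.0498) and with array weights (-0.65, adjusted p = 0.0261). A second P2ry6 probe had -3.66, -3.78, -4.08 and -3.93 in hypertensive vessels, against -3.46, -3.61, -3.57 and -3.39 in control vessels. These groups did not overlap either, and its estimate was -0.36 (SE 0.11, adjusted p = 0.110 with 1 test per probe).

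P2ry2 is the Gq-coupled receptor that ATP and UTP both activate. Its values were -0.43, -0.40, -0.52 and -0.41 in hypertensive vessels, against -0.08, -0.32, -0.05 and 0.22 in control vessels. The hypertensive values were closely grouped and lay under all control values, of which replicate 2 was the lowest. The estimate was -0.38 (SE 0.11, 95% interval -0.64 to -0.12) and did not pass the test, with adjusted p = 0.101 and a range of 0.0584 to 0.221 over 17 alternatives. The change of P2ry2 differed from that of its chromosomal neighbour P2ry6 by 0.17, a pair compared after the values were seen.

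P2ry1, the ADP receptor that starts platelet shape change and endothelial calcium signals, had values of -1.77, -1.86, -2.76 and -1.54 in hypertensive vessels, against -1.82, -1.82, -2.29 and -1.96 in control vessels. Hypertensive replicate 3 was the lowest array and the groups overlapped. The estimate was -0.01 (SE 0.25, 95% interval -0.58 to 0.55, adjusted p = 0.986), and its sign turned in 4 of 17 alternatives, which ranged between -0.16 and 0.25. Without hypertensive replicate 3 the estimate was 0.25 (adjusted p = 0.447). The other P2ry1 probe gave 0.20 (SE 0.15, adjusted p = 0.495). Of 3 tested platelet markers 0 passed in limma, and 1 had an unadjusted p under 0.05. Pf4, a platelet chemokine, had -0.44 (adjusted p = 0.0557) without overlap, Gp9 had 0.17 and Treml1 had -0.05. The summed level of the 3, most of which came from Pf4, was 5.27 to 6.07 in hypertensive vessels and 6.92 to 9.07 in control vessels. Their part in the P2ry1 values was not tested.

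P2rx4 is an ATP-gated channel that endothelial cells use in responses to flow, known from mice. Its values were -1.41, -1.45, -1.43 and -1.05 in hypertensive vessels, against -1.23, -1.34, -1.51 and -1.40 in control vessels. Hypertensive replicate 4 was the highest of the 8 arrays and the others lay close together. The estimate was 0.04 (SE 0.11, 95% interval -0.22 to 0.29, adjusted p = 0.889), and its sign turned in 5 of 17 alternatives, including quantile normalization and median centring. Without hypertensive replicate 4 it was -0.06 (adjusted p = 0.714).

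The channels P2rx1 and P2rx7 had no measurable level. P2rx1, the channel of sympathetic contraction, was well above background in 0 of 4 hypertensive vessels and 1 of 4 control vessels, with signals of 2.72 to 10.1 units in hypertensive vessels and 4.80 to 12.6 units in control vessels. P2rx7, whose opening by high ATP sets off interleukin release in macrophages, was not well above background on any array, with signals of 4.47 to 11.0 units in hypertensive vessels and 2.10 to 5.33 units in control vessels. No fold is given for either, because signals this near background do not measure a change.

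Adora2a and Adora2b are the adenosine receptors that raise cyclic AMP through Gs, and Adora2b needs more adenosine to act. Adora2a had values of 0.52, 0.50, 0.23 and 0.49 in hypertensive vessels, against 0.03, -0.30, 0.14 and 0.57 in control vessels. Control replicate 4 was the highest array and the groups overlapped. The estimate was 0.32 (SE 0.17, 95% interval -0.07 to 0.71) with adjusted p = 0.336. Adora2b had -1.82, -2.03, -1.99 and -1.42 in hypertensive vessels, against -1.60, -1.59, -1.65 and -1.60 in control vessels. Hypertensive replicate 4 was the highest array, and the other 3 hypertensive arrays were lower than every control array. The Adora2b estimate was -0.21 (SE 0.13, 95% interval -0.51 to 0.10, adjusted p = 0.429), and without hypertensive replicate 4, the array with the high adipocyte markers, it was -0.34 (adjusted p = 0.0574). The part of that array's other cell types in these values was not tested. The changes of Adora2a and Adora2b differed by 0.53, a pair compared after the values were seen. The single probe of Adora1, the Gi-coupled receptor that slows the heart, was not well above background on any array. Its signals were 3.82 to 11.7 units in hypertensive vessels and 2.98 to 8.81 units in control vessels.

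**Figure D2:**
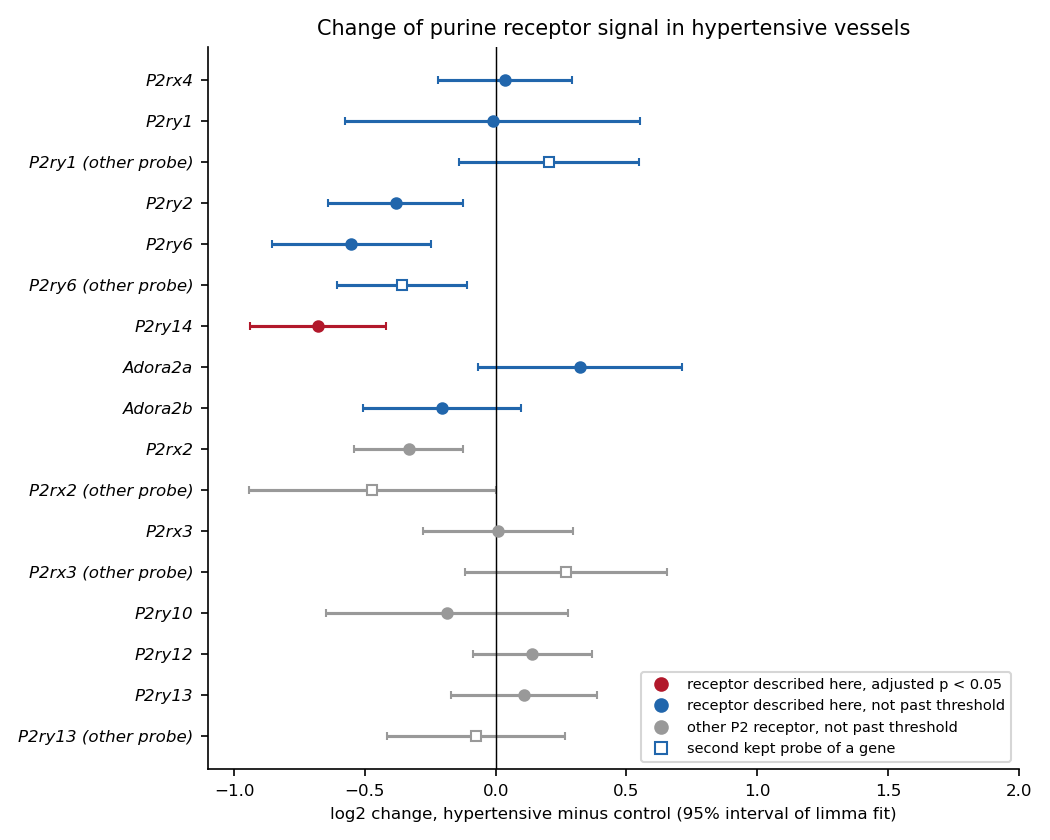
Log2 change of each kept receptor probe, hypertensive minus control, with its 95% interval from limma. The receptors described here and other P2 receptors are shown where tested, with second probes as open squares. P2ry14 at -0.68 is the receptor past the threshold. The intervals of P2ry2 and of both probes of P2ry6 and of P2rx2 lie below 0 without passing after adjustment.

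Of the 9 other P2 and adenosine receptors, 8 were on the array, 5 were tested and 0 passed in limma, with 1 at an unadjusted p under 0.05, P2rx2, near the 20.3% of all tests. P2rx2, a channel of sensory and autonomic nerves, had -1.42 to -1.21 in hypertensive vessels, against -1.16 to -0.89 in control vessels. The groups did not overlap, and the estimate was -0.33 (SE 0.09, adjusted p = 0.0812). Its other kept probe gave -0.47 (adjusted p = 0.251 in limma with 1 test per probe), with overlap. That probe was well above background on 2 of 4 hypertensive arrays. P2rx3, a channel of sensory neurons, had 0.01 (adjusted p = 0.980), and its other kept probe gave 0.27. P2ry10, a lymphocyte receptor for lysophospholipids, had -0.19 (adjusted p = 0.648). P2rx5, P2rx6 and P2ry4 were on the array but were not tested, and Adora3 had no named probe.

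The rest of the pathway was followed through lists of genes that release, break down or respond to purines. These lists were chosen with earlier results of these data known, so their shares are descriptions. Over 6 lists, which include the other receptors, 63 genes were tested, 1 rose and 3 fell, which is 6.35%, against 4.53% of all tests. The median change of these genes was -0.03. Among 10 tested ectonucleotidases 1 rose, Entpd3, which removes phosphates from extracellular ATP. Its values were 0.97, 1.85, 0.90 and 1.56 in hypertensive vessels, against -0.16, -0.11, 0.47 and 0.25 in control vessels. Every hypertensive array was higher, and the change was 1.21 (SE 0.24), a 2.31-fold rise with adjusted p = 0.0243. Entpd3 passed in 13 of 17 alternatives. The call was lost without control replicate 1 (adjusted p = 0.0768), without control replicate 2 (adjusted p = 0.0715), with slide position as a block (adjusted p = 0.0771) and without a filter on dim probes (adjusted p = 0.0582). Enpp1, which makes pyrophosphate from ATP, had 0.30 (SE 0.09, adjusted p = 0.117), also without overlap.

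Of 8 tested release channels 0 passed in limma, with 3 at an unadjusted p under 0.05, against 20.3% of all tests. The 2 with the smallest p were positive. Gja5, an endothelial connexin, had 0.91 (SE 0.29, adjusted p = 0.128), and the ATP-release channel Panx1 had 0.36 (SE 0.14, adjusted p = 0.179). However, 6 of the 8 had negative estimates, and the median was -0.08. Of 13 tested genes of adenosine transport and metabolism 0 passed in limma, with 4 at an unadjusted p under 0.05, against 20.3% of all tests. The AMP deaminase Ampd1 had 0.82 (SE 0.24, adjusted p = 0.101), and the adenosine transporter Slc29a1 had 0.45 (SE 0.14, adjusted p = 0.118). These had the smallest p of the 13, of which 7 had negative and 6 positive estimates (median -0.03). Of 21 tested G proteins and effectors 1 fell, Itpr3, a calcium release channel. Itpr3 was -1.07, -1.11, -0.96 and -0.94 in hypertensive vessels, against -0.56, -0.67, -0.69 and -0.76 in control vessels. Its change was -0.35 (SE 0.08, adjusted p = 0.0474), without overlap, and it passed in 7 of 17 alternatives. It lost the call in each fit without 1 array, except the fit without hypertensive replicate 4. The phospholipase Plcb1 had 0.44 (SE 0.11, adjusted p = 0.0634).

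**Figure D3:**
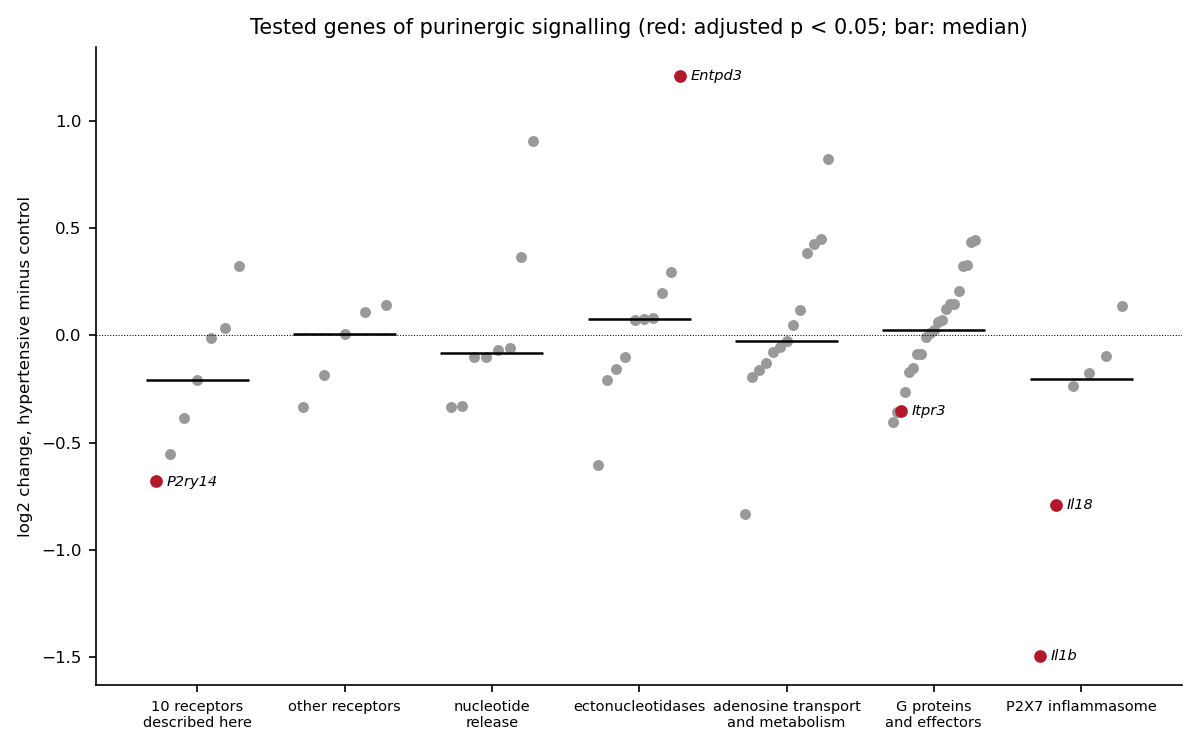
Log2 change, hypertensive minus control, of each tested gene in the receptor and pathway lists, with 1 point per gene, red for adjusted p below 0.05, and a bar at the median. Entpd3 is the gene past the threshold on the positive side, and P2ry14, Itpr3, Il18 and Il1b are those on the negative side.

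The inflammasome list holds genes that act with P2rx7 in immune cells. Of its 6 tested genes 2 fell, the inflammatory cytokines Il1b and Il18, which is 33.3%, against 4.53% of all tests. The list was written with earlier results of these data known, so that share is a description and not a test. Il1b was 0.64, 0.41, 0.19 and 0.65 in hypertensive vessels, against 2.06, 1.46, 2.39 and 1.95 in control vessels. All hypertensive arrays were lower, and the change was -1.49 (SE 0.20), 2.82-fold lower with adjusted p = 0.00380. Il18 was 1.25, 1.62, 1.22 and 1.33 in hypertensive vessels, against 2.28, 2.15, 1.90 and 2.24 in control vessels. It fell by 0.79 (SE 0.12), 1.73-fold, with adjusted p = 0.00874 and no overlap. Both passed in 17 of 17 alternatives. The sensor Nlrp3 had -0.23 on its brightest probe, while its other kept probes gave 0.15 and 0.29. The protease Casp1 had -0.17, and neither gene passed. The level of P2rx7 itself was not measurable on its single probe. Of 11 macrophage markers 9 had negative estimates, and of 7 lymphocyte markers 6 did. Besides Mrc1, which fell, the macrophage genes Csf1r and Cd163 had -0.49 (adjusted p = 0.0557) and -0.68 (adjusted p = 0.0599), and the T cell gene Cd3d had -0.74 (adjusted p = 0.0531), each without overlap. Cd68 had -0.05 and the macrophage gene Lyz2 had 0.53, and neither passed. The part of leukocyte content in the Il1b and Il18 differences was not tested.

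Other cell types were followed through 13 marker lists, also chosen with earlier results of these data known. In limma 0 passed of 10 smooth muscle, 10 endothelial, 6 fibroblast, 8 mast cell, 6 adipocyte, 6 Schwann cell and 1 neutrophil markers. At an unadjusted p under 0.05 there were 1 smooth muscle, 4 endothelial, 1 fibroblast, 7 mast cell, 0 adipocyte, 2 Schwann cell and 0 neutrophil markers, against 20.3% of all tests. The mast cell list had a median change of 0.74, with a summed level of 8.46 to 15.5 in hypertensive vessels and 5.24 to 8.46 in control vessels. Apart from Mrc1, 3 marker genes passed the test. The vesicular monoamine transporter Slc18a2, listed for sympathetic nerve, rose by 1.88 (SE 0.10, adjusted p = 3.04e-05). The muscle myosin Myh1 rose by 2.28 (adjusted p = 0.0397), and the erythroid membrane gene Epb42 rose by 0.74 (adjusted p = 0.00874). The other sympathetic markers Th, Chga and Npy had 0.13, 0.28 and -0.35. Among the other skeletal muscle markers Myh2 had 0.73 (adjusted p = 0.0552) and Acta1 -0.42 (adjusted p = 0.191), both without overlap. Ckm had 0.24 and Tnnt3 -0.14. The other erythroid markers, Alas2, Hbb and Hba-a1, had -0.80, -0.45 and -0.29, and the median of the erythroid list was -0.37. None of these passed the test. Their part in the receptor values was not tested.

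**Figure D4:**
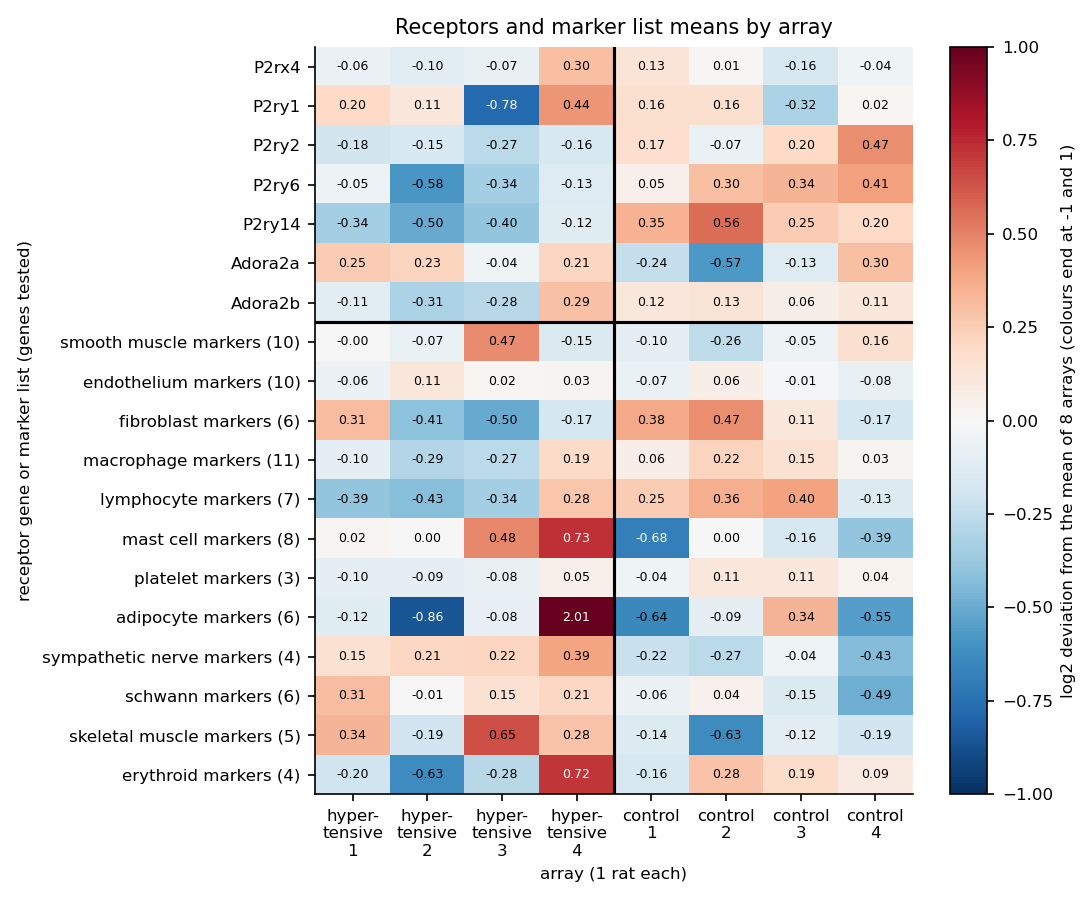
Log2 deviation of each tested receptor and of each marker list mean from its mean over the 8 arrays. Hypertensive arrays are left of control arrays, and colours end at -1 and 1. The neutrophil list, with 1 tested gene, is not drawn. P2ry14 is negative on all 4 hypertensive arrays and positive on all 4 control arrays, and the adipocyte markers of hypertensive replicate 4 reach 2.01.

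The 17 alternative settings moved the receptor estimates in different degrees. The P2ry14 estimate ranged between -0.77 and -0.26 and passed in 15 of 17. The P2ry6 estimate ranged between -0.65 and -0.45 and passed in 4 of 17. P2ry2 ranged between -0.47 and -0.29, Adora2a between 0.19 and 0.48, and Adora2b between -0.34 and -0.09, and none of these 3 passed in any of the 17.

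**Figure D5:**
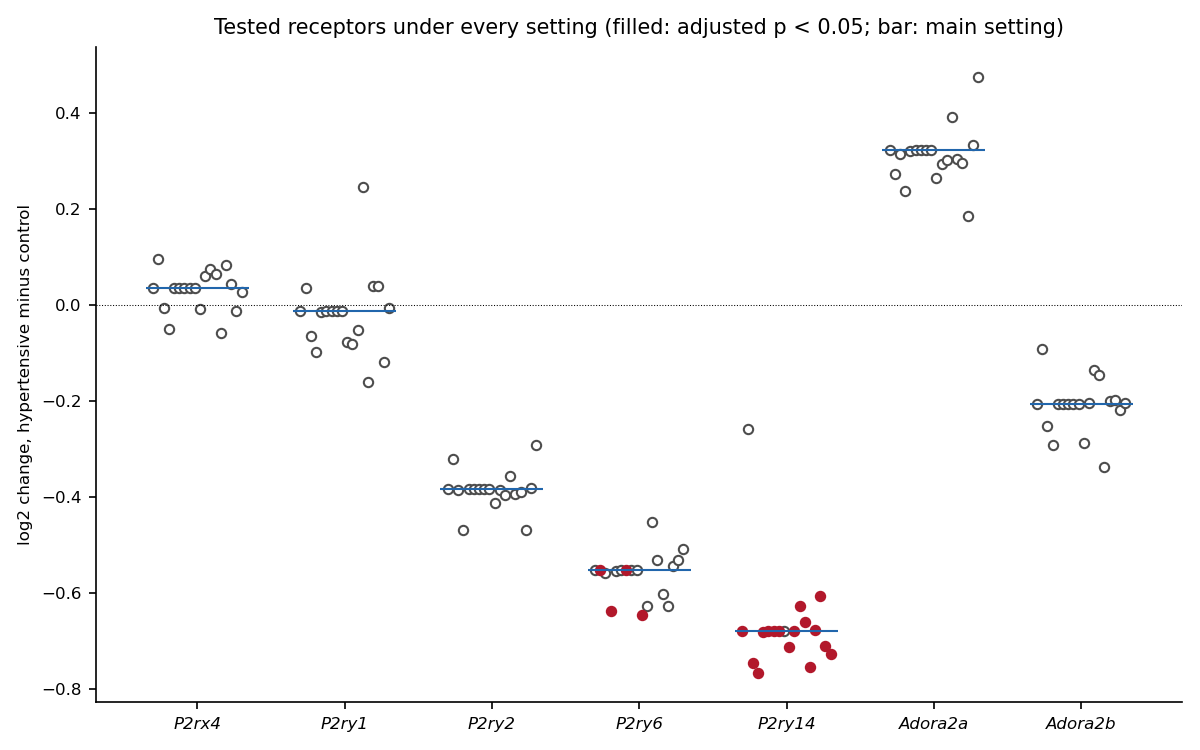
Log2 change of the tested receptors, hypertensive minus control, under the main setting and 17 alternatives. There is 1 point per setting, filled for adjusted p below 0.05, and a bar at the main setting. The estimates of P2ry14, P2ry6 and P2ry2 stay below 0 in every setting, and those of P2rx4 and P2ry1 lie on both sides of 0.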

How the data were processed

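The labels' protocols state that total RNA was labelled with Cy3 for 1-colour hybridisation. The deposited scanner files hold processed spot intensity values, background-subtracted by Agilent Feature Extraction, per the file headers. The headers name version 10.7.1.1, and the submitters' processing notes name version 12.1.1.1. The authors' deposited value table holds a linear ratio of that intensity to about the 75th percentile of the array, with column medians of 0.086 to 0.101. Its scale was found by comparison with the scanner values, and it served as an alternative.

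Control and flagged spots were left out, spots of a probe were averaged, and log2 of the deposited intensity minus the array's 75th percentile was taken. A probe was kept if well above background on at least 3 of 4 arrays of a group, which left 27822 probes. Genes were named through transcript accessions in the GRCr8 gene table (21229 of 45598 probes, 46.6%), and the brightest kept probe stood for a gene. Groups came from the sample titles, 4 rats each. limma 3.58.1 in R 4.3.3 fitted group as the only term, with Benjamini-Hochberg adjustment over 24552 tests. P-values set the group difference against the spread between these rats, which limma draws toward the spread typical of all tests. The number of rats sets the precision.

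Alternatives were normexp, quantile normalization, median centring, the value table, other filters, 1 test per probe, a replicate block, array weights and leaving out each array. Normexp used the median spot signal, because the files hold no mean signal. The receptors, the gene lists and the marker lists were chosen with earlier results of these data known. All receptors were named, with the genes past the threshold from each list, and from a pathway list with fewer than 2 of these, the 2 with the smallest p. Casp1, Nlrp3 and marker genes short of the threshold were named after their values were seen. The fit was tested on simulated data.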

Additional observations from a re-analysis of the deposited data

Results flagged for a closer look

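Of 42 groups of 4 arrays checked for an array far from the other 3, 4 had one, where chance gives about 1 in 20. All values are log2 relative to the array's 75th percentile, and an array was taken as far when its gap to the nearest array, over the group's range, exceeded Dixon's 95% critical value. P2rx4 was -1.05 in hypertensive replicate 4, and the nearest hypertensive array was at -1.41. Adora2a was 0.23 in hypertensive replicate 3, and the nearest hypertensive array was at 0.49. P2ry10 was -1.44 in control replicate 1, and the nearest control array was at -1.16. P2ry13 was -2.17 in control replicate 4, and the nearest control array was at -1.79.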

How the results depend on the processing

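Over the array 1111 tests were called, against 1857 with normexp, 641 without a filter on dim probes and 675 with the replicate block, which is also the position of the array within its slide row. Leaving out 1 array gave 629 (without control replicate 1) to 1473 (without hypertensive replicate 4), with 688 without hypertensive replicate 2, 725 without control replicate 2 and 695 without control replicate 3. Among the receptors, median centring, detection on all 8 arrays and array weights each called 2, P2ry14 and P2ry6, in place of 1. With the replicate block 0 were called in limma, with 3 at an unadjusted p under 0.05, and P2ry14 had adjusted p = 0.0723. The pathway lists had 4 calls, against 2 without a filter, 2 with the replicate block, 2 without control replicate 1 or control replicate 2, and 8 without hypertensive replicate 4. The replicate numbers were not treated as pairs in the main fit. Same-numbered deviations correlated at 0.21, 0.12, -0.00 and -0.15, and the best other-numbered control array gave 0.01, 0.09, 0.11 and 0.24. So few weak correlations cannot settle whether the numbers pair the rats. No called value changed sign. Of the single-gene values under alternatives, 167 kept their side of the threshold, 4 passed it newly and 16 lost it. The cause of these shifts was not tested. Signal near background limits P2rx1, P2rx7 and Adora1, for which no change is given.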
